A study of Mus musculus with 18 samples.

Results

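A set of 9 nuclear genes of the mitochondrion were followed through osteogenic culture of a preosteoblast line: *Ndufs8*, *Ndufv1* and *Ndufb4*, which encode subunits of respiratory complex I, *Timmdc1* (complex I assembly), *Cox17* (copper delivery to complex IV), *Opa1* (inner membrane fusion), *Tomm70a* (protein import), *Trap1* (matrix chaperone) and *Fam162a* (a mitochondrial protein known as a hypoxia-induced gene). They were taken by symbol as 9 of the 40620 rows of the deposited count matrix, 7 on chromosome 16 and 2 on chromosome 19. The cells were MC3T3-E1, an established line of mouse calvarial preosteoblasts. Lentiviral vectors gave stable cells with a scrambled hairpin (shScramble, whose genotype label is WT) or with either of 2 hairpins against *Rcor2*, a corepressor of the CoREST family (shRcor2-18 and shRcor2-20, labelled RCOR2 knockdown). RNA was sequenced at 0h, and at 24h and 7d in osteogenic medium (αMEM with 10% serum and 3 additions: 50 µg/ml ascorbic acid, 5 mM sodium β-glycerophosphate and dexamethasone, the last at 10 nM), with 2 samples for each of the 9 combinations of construct and time. The time of 7d comes from the sample titles and characteristics, as the protocol text does not list it. The labels are silent on whether a group's 2 samples came from separate cultures; if they did not, the p-values rest on technical spread alone. All groups compared therefore carried a lentiviral hairpin, and each later time also carried the osteogenic medium.

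The respiratory chain passes electrons from NADH through complex I, and onward to oxygen at complex IV, and the proton gradient that it builds drives ATP synthesis. Nearly all of its subunits are made in the cytosol and imported, so the chain depends on translocases, on matrix chaperones and on assembly factors that join subunits and metal cofactors. Osteoblast differentiation is known as a process with changing demands on glycolysis and on oxidative phosphorylation.

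Of the 18 libraries, 15 were used. The 3 sample 1 libraries of 0h were left out because they stood apart: they had counts in 11942 to 14355 rows, against 16555 to 18277 rows in the other 15. The 15 libraries held 3504808 to 6139315 counts. In much of the matrix the row names did not go with the reads expected of them. Commonly expressed genes were detected (at 20 CPM or more, that is, reads scaled to a common library size of 1000000) in 28 of 29 cases from the start of chromosome 16 to *Morc3*, and in 24 of 24 cases from the start of chromosome 19 to *Sf1*, but in 1 of 6 and 3 of 10 cases beyond those points. The end points were found by a search on the detection of these same genes, so this contrast is partly set by the search. All 9 genes lie inside these 2 stretches, which hold 754 coding rows. A check used other genes of widely expressed families kept out of that search, such as ribosomal protein, proteasome and respiratory chain genes. Rows named for them were detected in 17 of 18 cases within the stretches (median 207 CPM) and in 71 of 404 cases elsewhere (median 0.323 CPM). The row named *Rcor2* lies beyond the chromosome 19 stretch. It held 195 to 238 CPM in shScramble libraries and 207 to 268 CPM in hairpin libraries, so the knockdown could not be checked from it. Of 31 cell type markers only *Adipoq*, an adipocyte gene, lies within the stretches (mean 0.199 CPM), so the labelled cell type could not be checked either. Over the stretch rows, 0 of the 12 libraries that have a group partner among those used were nearest to it, which bears on the hairpin comparisons.

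Promoter windows are shown for *Fam162a*, *Trap1* and *Ndufb4*, the 3 genes whose 7d libraries all lay above their 0h libraries. Each is the 250 bases before the gene's start on the gene's strand, from RefSeq on GRCm38.p6; 8 of the 9 genes matched this table by symbol, and *Cox17* did not. The windows lie on the minus strand at chr16:36071562-36071811 (*Fam162a*), chr16:4077811-4078060 (*Trap1*) and chr16:37654369-37654618 (*Ndufb4*). Capitals mark matches, on either strand, to the hypoxia response core ACGTG, to the NRF-1 half-site TGCGCA or to the ETS motif CCGGAAG; in these 8 windows no match overlapped a match to another of these motifs.
Fam162a: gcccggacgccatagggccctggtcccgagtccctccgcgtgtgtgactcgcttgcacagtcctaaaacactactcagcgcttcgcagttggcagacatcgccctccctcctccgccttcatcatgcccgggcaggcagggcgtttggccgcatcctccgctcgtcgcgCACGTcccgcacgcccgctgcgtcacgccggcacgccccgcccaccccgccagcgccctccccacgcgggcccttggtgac
Trap1: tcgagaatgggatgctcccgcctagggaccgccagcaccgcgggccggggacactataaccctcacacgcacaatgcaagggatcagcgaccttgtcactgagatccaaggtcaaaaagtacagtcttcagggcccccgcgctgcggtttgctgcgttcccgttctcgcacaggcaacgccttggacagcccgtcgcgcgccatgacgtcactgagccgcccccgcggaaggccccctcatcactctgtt
Ndufb4: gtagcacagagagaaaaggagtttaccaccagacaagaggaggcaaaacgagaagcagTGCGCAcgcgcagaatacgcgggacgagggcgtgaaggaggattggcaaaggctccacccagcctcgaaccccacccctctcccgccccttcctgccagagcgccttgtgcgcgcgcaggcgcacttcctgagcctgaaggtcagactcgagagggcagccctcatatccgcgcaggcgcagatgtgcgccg
The *Fam162a* window held 1 match to ACGTG, on the reverse strand and starting 81 bases before the gene's start. *Ndufb4* held 1 match to TGCGCA, starting 192 bases before its start, and *Trap1* held none of the 3 motifs. Among the 8 windows, 2 held ACGTG (*Fam162a* and *Ndufv1*), 2 held TGCGCA (*Ndufb4* and *Opa1*) and 2 held CCGGAAG (*Timmdc1* and *Tomm70a*). Over all 32851 promoter windows of that length, 16.6% held ACGTG, 6.43% TGCGCA and 6.91% CCGGAAG. The matches describe these letters only.

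All 9 genes were expressed in each of the 15 libraries, with 172 to 4686 reads per gene and library, and all 9 passed the filter on low counts. At the lowest count, 172 for *Timmdc1*, counting alone gives a relative error of 7.62%. Per kilobase of annotated exon, the mean level was 327 CPM per kb for *Ndufs8*, 287 for *Ndufv1*, 281 for *Trap1* and 192 for *Fam162a*. Lower levels per kb were found for *Ndufb4* (62.6), *Tomm70a* (34.5), *Timmdc1* (31.8), *Opa1* (30.2) and *Cox17* (12.9). Neighbours in this order overlapped in range within the first 4 genes and within *Tomm70a*, *Timmdc1* and *Opa1*. *Fam162a* was above *Ndufb4*, *Ndufb4* above *Tomm70a* and *Opa1* above *Cox17* without overlap of their libraries. Exon length was the union over all annotated transcripts, which understates the level of a gene with long rare isoforms.

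**Figure D1:**
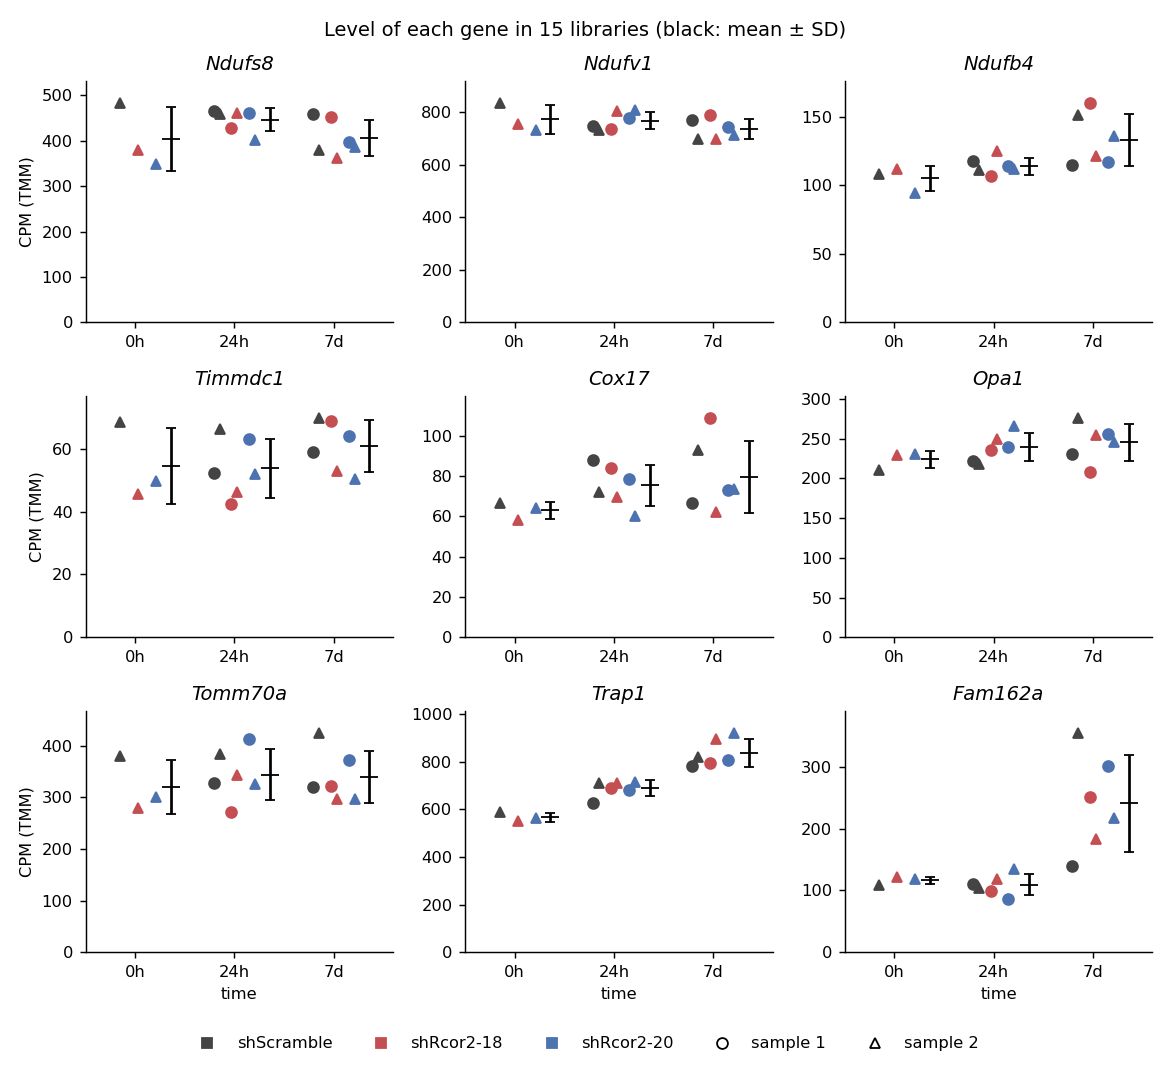
Level of each of the 9 genes (CPM after TMM scaling, axis from 0) in 15 libraries by time; colour gives the construct, the symbol gives the sample number and black bars give the mean ± SD. Trap1 steps upward at each time, Fam162a is higher and more scattered at 7d (139 to 355 CPM), and the other 7 genes stay within 1.87-fold over all libraries.

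The first comparison was between times, as the mean over the 3 constructs, and asks how the genes changed with osteogenic culture. The level of *Trap1* rose between 0h and 7d, and no other of the 9 genes passed the threshold between any 2 times. *Fam162a* had the largest difference, about 2.2-fold between 24h and 7d, with an adjusted p just above 0.05. The core complex I subunits *Ndufs8* and *Ndufv1*, the fusion gene *Opa1* and the import receptor *Tomm70a* differed by at most 1.12-fold between any 2 times, as means over the 15 libraries used. Those against 0h rest on 3 libraries, 1 for each construct. Leaving out shScramble 0h sample 2 also takes shScramble out of this comparison. The log2 difference of *Ndufs8* between 0h and 24h was then 0.27 over the hairpin constructs, against 0.16 over the 3 constructs. With all 18 libraries, values against 0h were negative for these 4 genes, at 24h -0.12 for *Ndufs8*, -0.23 for *Ndufv1*, -0.38 for *Opa1* and -0.53 for *Tomm70a*, and none passed the threshold.

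*Trap1* encodes the mitochondrial member of the Hsp90 chaperones. At 0h its level was 587 CPM in shScramble, 549 in shRcor2-18 and 561 in shRcor2-20. At 24h it was 626 and 712 CPM in the 2 shScramble samples, 687 and 709 in shRcor2-18, and 682 and 713 in shRcor2-20. At 7d the corresponding values were 783 and 821, 792 and 895, and 806 and 921 CPM. The 3 times did not overlap: each 24h library was above each 0h library, and each 7d library was above each 24h library. The mean went from 566 ± 19.4 CPM (SD, n = 3) at 0h to 688 ± 33.2 (n = 6) at 24h and 836 ± 57.4 (n = 6) at 7d. The rise from 0h to 7d was 1.48-fold (log2 change 0.56 ± 0.0846 SE, 95% interval 0.37 to 0.76, edgeR quasi-likelihood adjusted p = 0.00797). *Trap1* was thus the 1 of 9 genes called in that comparison, in which 5.76% of the 12930 rows tested and 11.8% of the 498 stretch rows among them were called, so that 1 of 9 is near the share of the stretch rows. Neither step alone passed over all rows, with log2 changes of 0.28 ± 0.0835 from 0h to 24h (adjusted p = 0.198) and 0.28 ± 0.0674 from 24h to 7d (adjusted p = 0.0731). Within the constructs the second step was 0.26 in shScramble, 0.27 in shRcor2-18 and 0.31 in shRcor2-20 on the log2 scale. *Trap1* shares part of its span with *Dnase1*, whose row went from 53 ± 6.48 CPM at 0h (n = 3) to 74.7 ± 8.12 at 7d (n = 6, adjusted p = 0.0789). Whether reads were counted by strand is not given, so reads of the shared part cannot be told apart.

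*Fam162a* encodes a mitochondrial protein that has been linked to cell death under hypoxia. At 0h its level was 109 CPM in shScramble, 121 in shRcor2-18 and 118 in shRcor2-20. At 24h it was 111 and 103 CPM in the shScramble samples, 99.7 and 119 in shRcor2-18, and 86.4 and 135 in shRcor2-20. At 7d it was 139 and 355 CPM in shScramble, 251 and 183 in shRcor2-18, and 301 and 217 in shRcor2-20. All 6 libraries of 7d lay above all 9 of the earlier times, but the lowest, shScramble sample 1, was close to the highest library of 24h. The mean was 116 ± 6.11 CPM (n = 3), 109 ± 16.9 (n = 6) and 241 ± 78.6 (n = 6) in the order of time. From 24h to 7d the log2 difference was 1.14 ± 0.242 (95% interval 0.58 to 1.69, edgeR adjusted p = 0.0541), in a comparison that called 2.34% of rows and 0 of the 9 genes. From 0h to 7d it was 1.05 ± 0.307 (adjusted p = 0.093). By construct the difference between 24h and 7d was 1.21 in shScramble, 0.99 in shRcor2-18 and 1.22 in shRcor2-20. The 2 samples of shScramble at 7d were 2.55-fold apart, the widest spread of any of the 9 genes in any group. The overlapping gene *Wdr5b* held 32.2 ± 1.53 CPM at 0h (n = 3) and 27 ± 2.79 at 7d (n = 6).

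**Figure D2:**
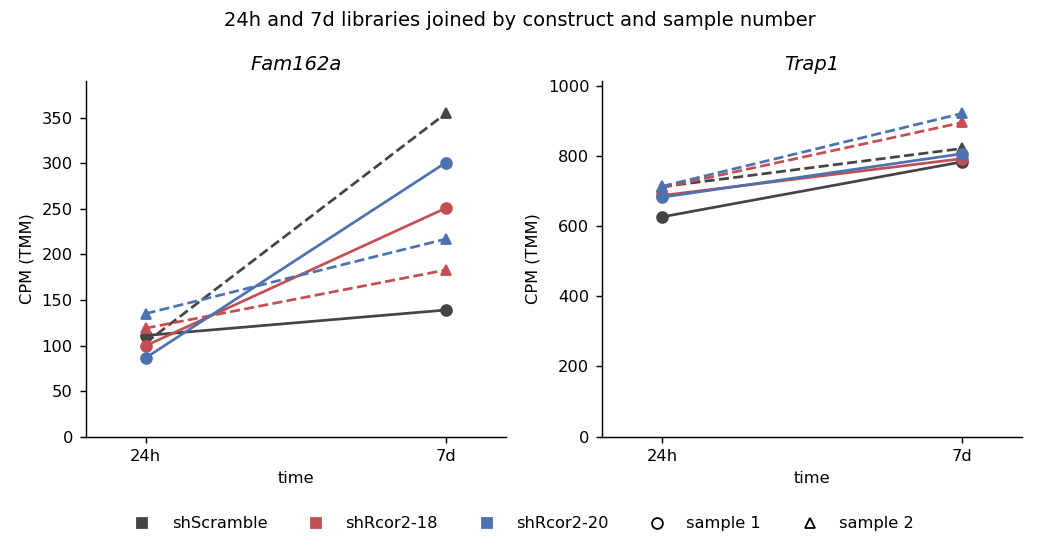
CPM (TMM-scaled, axes from 0) of Fam162a and Trap1 at 24h and 7d, each line joining the libraries of 1 construct and sample number. The libraries of 7d lie above those of 24h in both panels; the flattest line for Fam162a is shScramble sample 1, from 111 to 139 CPM.

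The calls for these 2 genes depended on the rows tested and the tool. When the test was run on the 498 coding rows of the stretches that passed the filter, *Fam162a* was called at 7d against 24h (1.12 ± 0.212, adjusted p = 0.00884), where 16.7% of rows were called. It was also called at 7d against 0h (1.06 ± 0.269, adjusted p = 0.0186), where 25.5% of rows were called. *Trap1* was called at 7d against 24h in the same fit (adjusted p = 0.0301), and none of the 9 genes was called at 24h against 0h, where 5.62% of rows were called. DESeq2 on all rows called both genes between 24h and 7d, with adjusted p = 0.000243 for *Fam162a* and 0.000594 for *Trap1*, while it called 8.32% of rows. It called the same 2 genes between 0h and 7d (10.9% of rows called) and *Trap1* between 0h and 24h (4.47% of rows called). With sample number within construct as a replicate block on all rows, neither gene was called between 24h and 7d (adjusted p = 0.127 for *Fam162a* and 0.0835 for *Trap1*). With that block, an alternative added after seeing the data called *Trap1* also at 24h against 0h on the stretch rows (0.35 ± 0.0949, adjusted p = 0.0223; 11.2% of rows called). The value for *Fam162a* moved with single libraries. Leaving out each of the 15 in turn gave log2 differences of 0.86 to 1.31 between 24h and 7d, and the call was made in 1 of these 15 fits, without shScramble 7d sample 1, the lowest library of that time. There the log2 difference between 24h and 7d was 1.31 ± 0.166 (adjusted p = 0.0183), and between 0h and 7d 1.23 ± 0.208 (adjusted p = 0.0216). In the 3 libraries left out, *Fam162a* held 194 to 267 CPM and *Trap1* 476 to 583 CPM, before TMM scaling, against 113 to 119 and 542 to 607 in the 0h libraries used. Per 1000000 counts of the stretch rows the values read differently: *Fam162a* held 952 to 1350 against 875 to 989, which overlap, and *Trap1* 2410 to 2860 against 4500 to 4720, which do not. Of all counts of those 3 libraries 19.7 to 20.4% fell in the stretches, against 11.6 to 12.9% in the 15 used. With all 18 libraries the difference of *Fam162a* between 0h and 7d was 0.41 (adjusted p = 0.441), and that of *Trap1* was 0.61 (adjusted p = 0.0128).

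The complex I subunits came next. *Ndufv1* encodes the flavoprotein that takes electrons from NADH, and *Ndufs8* an iron-sulfur subunit that passes them toward ubiquinone. The mean level of *Ndufv1* was 774 ± 54.8 CPM at 0h (n = 3), 769 ± 33.8 at 24h (n = 6) and 737 ± 38.1 at 7d (n = 6), with overlap of all times. *Ndufs8* held 403 ± 70.6, 446 ± 25.7 and 406 ± 39.8 CPM, and its 3 libraries of 0h (483 in shScramble, 379 in shRcor2-18 and 348 in shRcor2-20) spanned its whole range. The log2 difference between 0h and 7d was -0.07 (95% interval -0.24 to 0.1) for *Ndufv1* and 0.02 (-0.21 to 0.26) for *Ndufs8*. *Ndufb4*, an accessory subunit of the membrane arm, held 108, 112 and 94.1 CPM in shScramble, shRcor2-18 and shRcor2-20 at 0h. At 7d it held 115 and 151 CPM in shScramble, 160 and 121 in shRcor2-18, and 117 and 136 in shRcor2-20, all above the 0h libraries, while 3 of these 6 lay above the highest 24h library. Its log2 difference between 0h and 7d was 0.35 ± 0.135 (adjusted p = 0.185). With the replicate block on the stretch rows it was 0.38 ± 0.136 (adjusted p = 0.0437), where 31.3% of rows were called.

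*Timmdc1*, a membrane-bound factor that helps to assemble complex I, held 54.6 ± 12.2 CPM at 0h (n = 3), 53.8 ± 9.37 at 24h (n = 6) and 60.9 ± 8.19 at 7d (n = 6). *Cox17*, which carries copper to complex IV through the intermembrane space, held 63 ± 4.35, 75.5 ± 10.3 and 79.6 ± 17.9 CPM. At 7d the 2 shRcor2-18 samples of *Cox17* held 109 and 62.1 CPM and so spanned nearly the whole range of the gene. The log2 difference between 0h and 7d was 0.18 ± 0.157 for *Timmdc1* and 0.34 ± 0.209 for *Cox17*, neither past the threshold (adjusted p = 0.602 and 0.421). *Opa1*, the dynamin-like GTPase that fuses inner membranes and shapes cristae, held 224 ± 10.7, 239 ± 17.9 and 245 ± 23.6 CPM at the 3 times. *Tomm70a*, an outer membrane receptor that accepts chaperone-bound precursors, held 320 ± 52.8, 344 ± 49.3 and 339 ± 50.6 CPM. The 95% interval of the log2 difference between 0h and 7d was -0.09 to 0.36 for *Opa1* and -0.24 to 0.42 for *Tomm70a*. Of these 4 genes, all but *Opa1* share part of their span with another gene, and shared reads cannot be told apart. *Gm15953*, within reach of *Timmdc1*, held 24.1 ± 3.92 CPM at 0h (n = 3) and 12.3 ± 3.6 at 7d (n = 6). *Nit2*, which overlaps *Tomm70a*, held 49.7 ± 4.47 and 63.4 ± 11.6 CPM. *Gm21987*, which overlaps *Cox17*, had a mean of 0.0818 CPM.

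**Figure D3:**
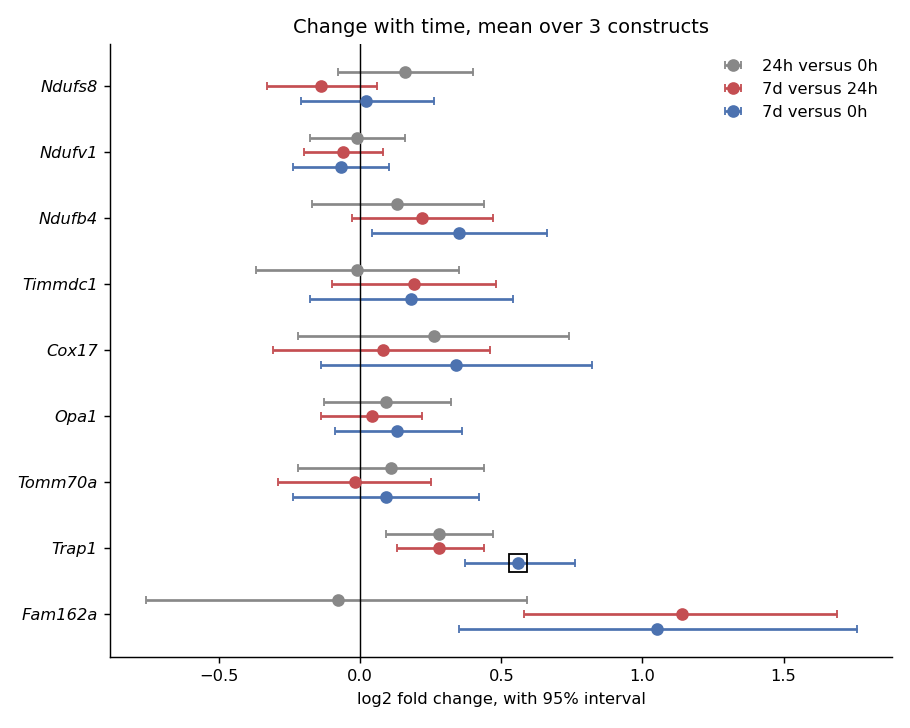
Log2 fold change of the 9 genes between pairs of times (edgeR, mean over the 3 constructs, bars give the 95% interval); the open square marks the call with adjusted p under 0.05. Trap1 at 7d against 0h is the call, and Fam162a has the largest change and the widest intervals.

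Between 0h and 24h, where 1.86% of rows were called, none of the 9 genes was called by edgeR, and 1 (*Trap1*) had an unadjusted p under 0.05. Between 24h and 7d, where 2.34% of rows were called, 0 of 9 were called and 2 (*Fam162a* and *Trap1*) had an unadjusted p under 0.05. DESeq2 called 1 in the first of these comparisons and 2 in the second. An unadjusted edgeR p under 0.05 was found between 0h and 24h for 11.5% of all rows and 16.7% of the stretch rows. Between 24h and 7d these shares were 17.8% and 29.5%, so 1 and 2 of 9 do not set the genes apart from the stretch rows. The median log2 difference between 0h and 7d was 0.18 over the 9 genes, 0.02 over the 498 stretch rows and 0.07 over all rows tested. Libraries of 0h and 7d did not overlap for 3 of the 9 genes, all higher at 7d (*Trap1*, *Fam162a* and *Ndufb4*), as for 14.9% of all rows and 30.1% of the stretch rows. Libraries of 24h and 7d did not overlap for 2 of 9, against 5.01% of all rows and 12% of the stretch rows, and those of 0h and 24h for 1 of 9 (*Trap1*), against 7.77% and 15.5%. In bulk RNA a change in the mix of cells and a change of RNA per cell cannot be told apart.

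The second comparison set the 2 *Rcor2* hairpins against shScramble and asks whether these genes differed between them. The knockdown itself could not be checked. Over the stretch rows, 0 of the 12 libraries with a group partner were nearest to it. The spread within groups thus includes differences that cross the construct labels. The absence of a call therefore does not show that the knockdown left these genes unchanged. None of the 9 genes was called with 24h and 7d averaged, at 24h alone or at 7d alone, and none had an unadjusted p under 0.05 (edgeR; DESeq2 also called 0). These comparisons called 0.0464%, 0.0155% and 0.0387% of all rows by edgeR and 0.162%, 0.224% and 0.162% by DESeq2. On the stretch rows alone they called 0% of rows. *Timmdc1* had the most negative value at 24h, -0.23 ± 0.189 (95% interval -0.66 to 0.2), with 52.3 and 66.4 CPM in shScramble, 42.4 and 46.3 in shRcor2-18, and 63.3 and 52.1 in shRcor2-20. *Timmdc1* was picked as the lowest of 9 values, and its shRcor2-20 samples lay inside the shScramble range or just below it. *Opa1* had the most positive value at 24h, 0.17 ± 0.12 (-0.11 to 0.44), and was picked as the highest of 9 values. It held 222 and 218 CPM in shScramble, 235 and 250 in shRcor2-18, and 239 and 266 in shRcor2-20. At 7d shScramble sample 2 held the highest level of *Opa1* (276 CPM) and shRcor2-18 sample 1 the lowest (208 CPM). *Tomm70a* had the most negative value at 7d, -0.21 ± 0.176 (-0.61 to 0.19). The intervals were narrowest for *Ndufv1*, at 7d -0.2 to 0.22, and widest for *Fam162a*, at 7d -0.88 to 0.76, so that a change of *Fam162a* below 1.5-fold in either direction was within the interval.

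No difference between hairpin and shScramble cells was detected in the change from 24h to 7d either, under the same limits. The difference of the changes was called for 0 of 9 genes and for 0.0541% of rows, none of the 9 genes had an unadjusted p under 0.05, and DESeq2 called 0 of the 9 and 0.255% of rows. It was largest for *Opa1*, at -0.24 ± 0.169 (95% interval -0.63 to 0.14), and for *Fam162a* it was -0.1 ± 0.507 (-1.27 to 1.06). Taken one at a time, shRcor2-18 gave values of -0.42 to 0.14 at 24h and -0.27 to 0.1 at 7d over the 9 genes, and shRcor2-20 gave -0.21 to 0.2 and -0.17 to 0.11. At 0h each construct had 1 library and no comparison was tested.

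**Figure D4:**
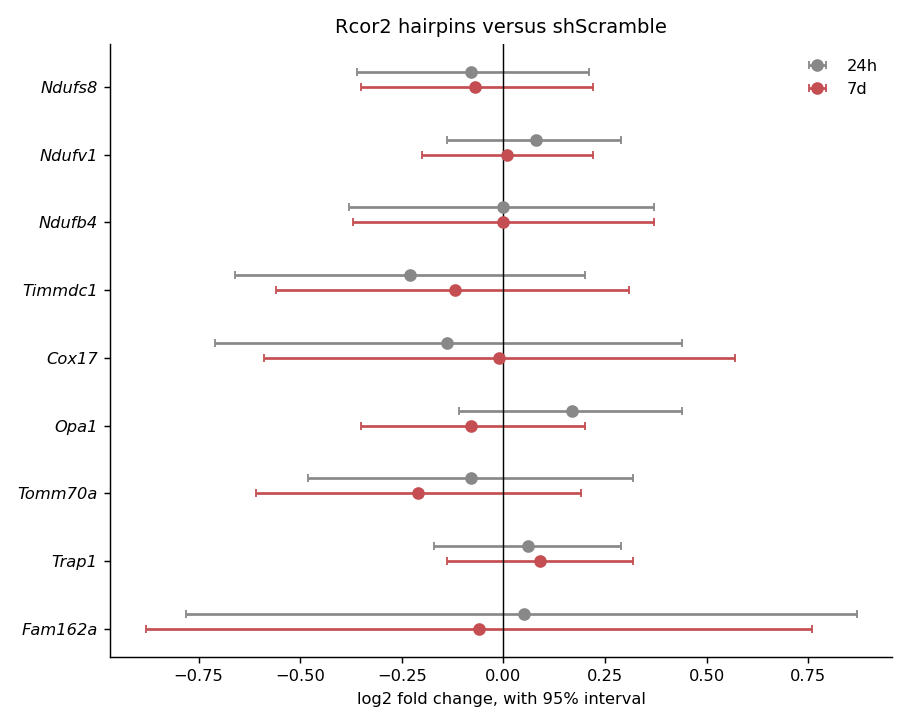
Log2 difference between the mean of both Rcor2 hairpins and shScramble at 24h and at 7d for the 9 genes (edgeR, bars give the 95% interval). All intervals include 0, and they are widest for Fam162a.

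The samples of 1 group varied more for some genes than for others. Over the 6 groups with 2 samples the median ratio between them was 1.07 for *Ndufv1*, 1.09 for *Trap1* and *Opa1*, 1.27 for *Cox17* and 1.38 for *Fam162a*. Over the 15 libraries the log2 levels of *Timmdc1* and *Tomm70a* had the highest correlation of the 36 pairs (Pearson r = 0.8), followed by *Ndufb4* with *Fam162a* (0.72). The lowest was *Ndufs8* with *Opa1* (-0.53), and the median was 0.24. The points share library depth, scaling and time, so these are descriptions. Of 415 other stretch genes with at least 20 CPM, the most alike in pattern was *Nxpe3* for *Trap1* (r = 0.9), *Dnaja3* for *Fam162a* (0.88), *Pam16* for *Timmdc1* (0.88) and *Acap2* for *Opa1* (0.86). For the others it was *Klc2* for *Ndufs8* (0.84), *Trmt10c* for *Ndufb4* (0.84), *Ube2l3* for *Tomm70a* (0.82), *Eif1ad* for *Ndufv1* (0.79) and *Chmp2b* for *Cox17* (0.79). Each of these lies on the same chromosome as its partner in the pair. The candidates came only from the 2 stretches, which hold 613 coding rows on chromosome 16 and 141 on chromosome 19.

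Other mitochondrial genes were read from 15 lists, of which 17 further genes lay in the stretches and passed the filter. By edgeR over all rows, 0 of the 17 were called at 24h against 0h, at 7d against 0h, at 7d against 24h or with hairpins against shScramble, and 1, 4, 3 and 0 had an unadjusted p under 0.05. Over all rows the shares called were 1.86%, 5.76%, 2.34% and 0.0464%, and the shares with an unadjusted p under 0.05 were 11.5%, 20.5%, 17.8% and 3.44%. Over the stretch rows, among which the 17 genes lie, the shares called were 2.61%, 11.8%, 4.42% and 0%. The stretch shares with an unadjusted p under 0.05 were 16.7%, 36.1%, 29.5% and 1.2%. For the 17 genes the median log2 difference between 24h and 7d was 0, with a range of -0.42 to 0.3, against 0.08 over the 9 genes and -0.02 over all rows. Among chaperones and proteases, *Dnaja3*, a mitochondrial Hsp40 co-chaperone, held 237 ± 23.5 CPM at 24h and 292 ± 19.2 at 7d (n = 6 each; 0.3 ± 0.077, adjusted p = 0.0834), and *Parl*, a rhomboid protease, differed by 0. The complex I assembly gene *Tmem186* held 80.3 ± 2.96 and 96.2 ± 8.91 CPM (0.26 ± 0.0799, adjusted p = 0.135). Of the import genes, *Pam16* (a subunit of the import motor) had a log2 difference of 0.16 and *Ccdc58* one of 0.15. The 2 ATP synthase subunits had negative values, -0.28 for *Atp5j* and -0.13 for *Atp5o*. The citrate carrier *Slc25a1* held 224 ± 52.3 CPM at 24h and 166 ± 19.2 at 7d (-0.42 ± 0.144, adjusted p = 0.178), and *Txnrd2*, the mitochondrial thioredoxin reductase, had -0.22. The fission GTPase *Dnm1l* had -0.1 and the ETS factor *Gabpa*, which regulates respiratory genes, had 0.11. The 6 genes of the mitochondrial ribosome lay between -0.11 (*Mrpl39*) and 0.12 (*Mrps6*), with *Mrpl11* and *Mrpl49* at 0.09 and -0.09.

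**Figure D5:**
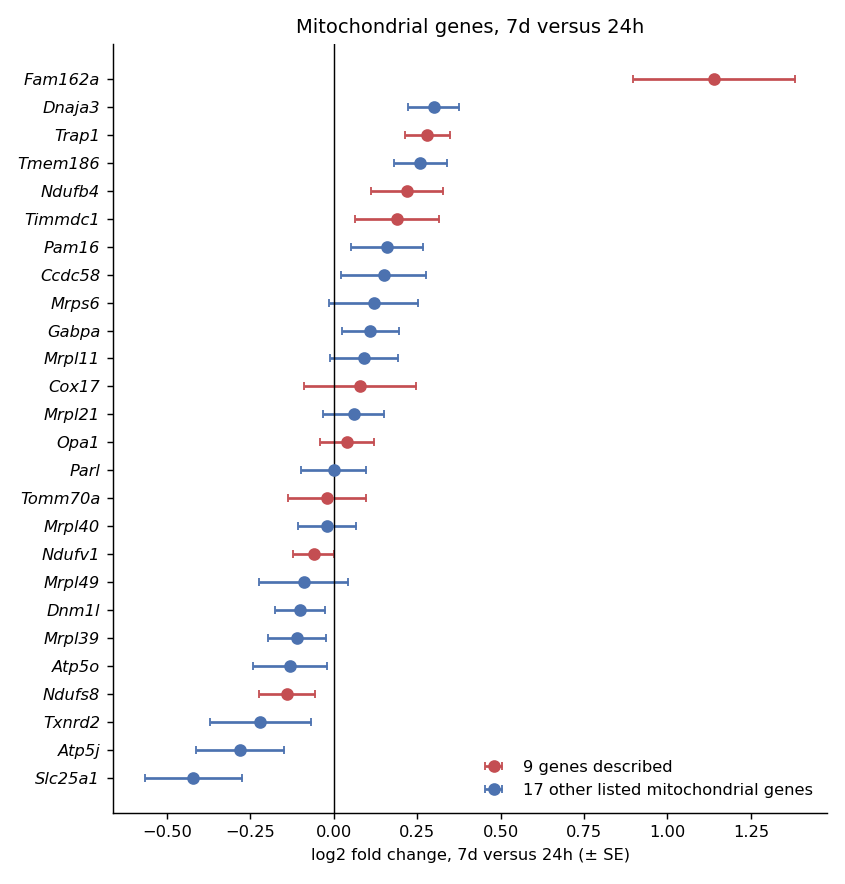
Log2 fold change from 24h to 7d (edgeR, bars give ± SE) of the 9 genes and of 17 other listed mitochondrial genes in the same stretches, in order of the change. Fam162a (1.14) stands far above the next gene, Dnaja3 (0.3); Slc25a1 (-0.42) is the lowest.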

How the data were processed

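Total RNA of 18 libraries was sequenced as 100-base reads. The deposited counts are whole numbers per gene, not normalized; the authors used FastQC, TopHat2 2.0.9, the mm9 genome, DESeq and DESeq2, per the submitters' processing notes. The read counter, its gene annotation and its use of strand: not given in the sources used here. Row identifiers were matched to GENCODE vM21 for names, order and exon length (39547 of 40620, 97.4%). The members and lists were chosen with earlier results of these data known.

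The stretches were found as the runs of coding rows that best fitted a detection rate of 0.9 for 298 commonly expressed genes inside and 0.25 outside, at 20 CPM (reads per 1000000). Counts of 15 libraries were fitted with 1 mean per construct and time in edgeR 4.0.16 (R 4.3.3; filterByExpr, TMM, robust quasi-likelihood, 6 residual degrees of freedom), with Benjamini-Hochberg adjustment over 12930 rows and a threshold of 0.05. At 0h each construct had 1 library, assumed to vary like the others. Named were all 9 members, up to 4 genes a list by size of change from 24h to 7d, and the most alike gene of each member. Alternatives were other size factors, no filter, DESeq2 1.42.0, stretch rows, all 18 libraries, replicate blocks, single hairpins, and leaving out each library. Over 424 stretch rows, same-numbered samples of a construct deviated together at 24h and 7d (r = 0.46, 0.52 and 0.49); over 5044 rows of the whole matrix Pearson's r was -0.07, 0.09 and -0.01 and Spearman's rho 0.22, 0.25 and 0.21. No label states such a pairing.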

Additional observations from a re-analysis of the deposited data

Results flagged for a closer look

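*Trap1* at 24h in shScramble sample 1 held 626 CPM, below the other 5 libraries of that time (682 to 713 CPM). Its gap to the nearest library was 0.639 of the whole range, past the 95% critical value of 0.625 for 6 libraries. The 9 genes at 24h and at 7d gave 18 such groups, of which 1 was singled out; chance alone gives about 1 in 20. Without that library the count of the 9 genes called did not change in any time comparison.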

How the results depend on the processing

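Of 1530 values of single genes under alternatives, 14 passed the threshold where the reported value did not and 0 lost it; 139 values that passed in neither fit changed sign. The rise of *Trap1* from 0h to 7d kept its call under all 23 alternatives (log2 0.53 to 0.63). *Fam162a* from 24h to 7d ranged from 0.86 to 1.31 when 1 library was left out. At 24h against 0h, 7d against 0h and 7d against 24h, DESeq2 called 1, 2 and 2 of the 9 genes and 578, 1406 and 1076 rows, against 0, 1 and 0 genes and 240, 745 and 302 rows in the reported fit. The stretch rows alone gave 2 of the 9 genes at 7d against 0h and 2 at 7d against 24h, where 25.5% and 16.7% of those rows were called; with the replicate block (number within construct) they gave 1, 3 and 2, where 11.2%, 31.3% and 28.9% were called. The block on all rows gave 56, 432 and 169 rows and changed no call of the 9 genes. All 18 libraries gave 38 rows at 7d against 24h, and 0 rows in each hairpin comparison. Leaving out a 0h library also takes its construct out of the comparisons against 0h. The lowest counts of rows given next for those comparisons came without shScramble 0h sample 2, and so without shScramble. With 1 library left out, the rows called ranged over 126 to 231, 310 to 762 and 120 to 307, and the genes called over 0 to 0, 1 to 2 and 0 to 1.

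For hairpins against shScramble, no alternative called any of the 9 genes. The rows called with times averaged, at 24h, at 7d and for the difference of changes were 6, 2, 5 and 7. DESeq2 gave 21, 29, 21 and 33, no filter gave 4 at 24h, and shRcor2-18 alone 5, 9 and 12 in the 3 after the average. The replicate block (number across constructs within a time) gave 2 with times averaged, 0 at 7d and 2 for the difference; same-numbered samples did not all deviate together across constructs (r = -0.2 to 0.6). Leaving out 1 library gave 4 to 14, 2 to 12, 5 to 15 and 4 to 11. The cause of these differences was not tested. The median log2 difference of all rows at 24h and 7d against 0h was 0.06 and 0.07 in the reported fit, 0.13 and 0.17 with no filter, and 0.18 and 0.19 with all 18 libraries. Only 3 libraries of 0h and 2 samples a group limit what can be called.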

Other observations

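Of the rows named for coding genes of the mitochondrial genome, 10 were found, and all 10 were listed at 0 in each of the 18 libraries; they lie outside the stretches in which row names could be checked. Over the 9 genes, as over the stretch rows, 0 of the 12 libraries that have a second sample of their construct and time were nearest to it. Over the stretch rows, shScramble sample 1 was nearest to shRcor2-18 sample 1, shScramble sample 2 to shRcor2-20 sample 1, and shRcor2-18 sample 2 to shRcor2-20 sample 2, both at 24h and at 7d.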
